A study of Mus musculus with 9 samples.

Results

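Mouse macrophages that had received recombinant lipocalin 2 (LCN2) from the first day of culture were compared with macrophages that received it only on day 7. The comparison holds 6 of the 9 arrays of the series, 3 titled M2 + LCN2 d0 and 3 titled M2 + LCN2 d7, and all 19505 genes that carry a single symbol. The 3 vehicle arrays were not used. The arrays were chosen by their titles and not by any measured value.

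All cells were wild-type C57BL/6 bone marrow cells cultured over 7 days with M-CSF, the macrophage growth factor, and 10% serum, a treatment that turns marrow precursors into macrophages. The labels give the M-CSF concentration as 10 ng/ml in the growth protocol and 20 ng/ml in the series text. On day 7 all cells received interleukin 4 (IL-4) at 20 ng/ml, and they were harvested 24 h later. The d0 cells were grown with 150 ng/ml LCN2 from day 0. The d7 cells received LCN2 together with IL-4, at a dose that the labels do not state. Whether LCN2 stayed in the medium of the d0 cells during the IL-4 step is also not stated, so start time, dose and length of exposure cannot be told apart. Nothing in the labels ties the 3 arrays of a group to separate animals or dishes. The p-values thus reflect only how these samples spread, and that spread may be technical.

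LCN2 is a small secreted protein of the lipocalin family that binds bacterial siderophores, the molecules with which bacteria collect iron, and so withholds iron from them. Neutrophils store it in granules, and macrophages make it in response to inflammatory signals. IL-4 acts through its receptor and the transcription factor STAT6 and drives macrophages into a state often called M2 or alternative activation, marked by arginase, by chitinase-like proteins and by the capacity to fuse into multinucleate giant cells. IL-4 also raises MHC class II molecules, with which macrophages show peptides of ingested proteins to helper T cells.

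The deposited values are log2 expression levels, so a difference of 1 is a doubling, and each difference below is d0 minus d7. The 6 arrays had medians between 5.60 and 5.69. The macrophage markers Adgre1 (F4/80) and Csf1r (the M-CSF receptor) were bright on all of them. Adgre1 stood at 11.62 to 11.97 on the d0 arrays and 11.64 to 11.78 on the d7 arrays, and Csf1r at 11.97 to 12.06 and 11.98 to 12.16. The titles number the arrays of each group 1, 2 and 3. The arrays numbered 1 stood apart in both groups: the first principal component held 62.2% of the variance, with d0 number 1 at 32.5 and d7 number 1 at 22.4 and the other 4 arrays between -14.9 and -11.3. On the arrays numbered 1, 51 of 52 cell cycle genes were lower, and the median of that list was -0.90 against the other arrays. The median of 12 neutrophil granule markers was -0.96, and that of 24 immediate early genes was 0.70. Each group holds 1 such array. The labels do not say what the numbers stand for. Deviations from the group means correlated at 0.744 between the arrays numbered 1, 0.161 between those numbered 2 and 0.263 between those numbered 3, but at 0.631 between d0 number 2 and d7 number 3 and at 0.5 between d0 number 3 and d7 number 2. A difference within number 2 or 3 may therefore not be one of paired samples. Differences are also given within each number, and the main lists also without the arrays numbered 1.

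No gene differed past the threshold between early and late LCN2. Limma called 0 of 10034 genes at an adjusted p under 0.05 (0.0%), and every gene had an adjusted p of 0.9999. At an unadjusted p under 0.05 there were 124 genes (1.24%), of which 48 were higher (0.478%) and 76 lower (0.757%) with LCN2 from day 0. The lower share of these 124 was 61.3%, and it was 81.8% of the genes found when each array was first centred on its median. Higher genes outnumbered lower ones when some arrays were left out, with a lower share of 45.7% without d7 number 3 (63 higher, 53 lower) and of 34.4% without both arrays numbered 3 (42 higher, 22 lower). With the number as a block the fit again called 0 genes (0.0%), and 259 had an unadjusted p under 0.05 (2.58%), 87 higher (0.867%) and 172 lower (1.71%). In both fits the share of genes at an unadjusted p under 0.05 lay below the share of 0.05 expected where no gene differs. The 3 arrays of one group all lay above the 3 of the other for 498 genes (4.96%), 207 higher (2.06%) and 291 lower (2.9%) with LCN2 from day 0. Such separation also arises where genes do not differ, and how often it does in these arrays was not tested. The differences within numbers 1, 2 and 3 shared a sign for 2100 genes (20.9%), 804 higher (8.01%) and 1296 lower (12.9%), and the mean difference lay below 0 for 55.5% and above 0 for 44.5%. The sizes were small. The mean difference had a standard deviation of 0.15 over all genes tested and a median of -0.017, and 48 genes passed 0.5 in size (0.478%), 15 higher (0.149%) and 33 lower (0.329%). Only Pla2g7 passed 1 in size, on the lower side (0.00997%). All differences named below are values that did not pass the adjusted threshold.

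**Figure D1:**
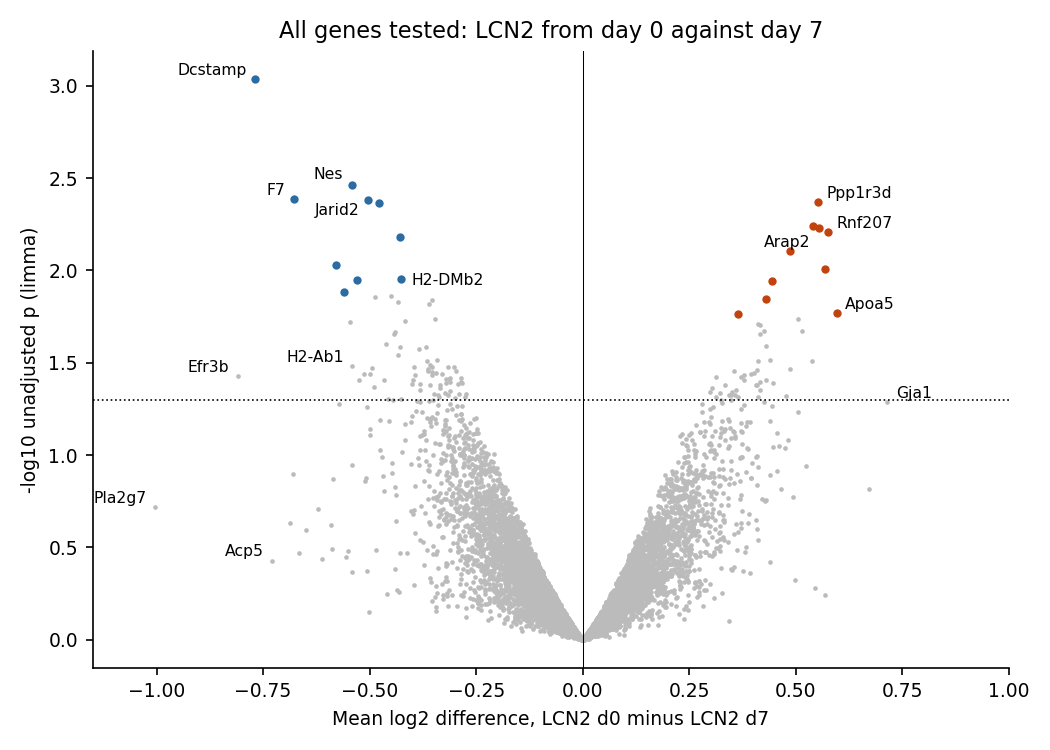
Mean log2 difference of each of 10034 genes tested (d0 minus d7, horizontal axis) against -log10 of the unadjusted limma p (vertical axis), with the dotted line at an unadjusted p of 0.05. Blue points are the 10 lower genes and orange points the 10 higher genes with the smallest p. Dcstamp at -0.77 has the smallest p, Pla2g7 at -1.003 lies far left but low because its arrays spread widely, and no gene passed after adjustment.

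MHC class II genes stood lower with LCN2 from day 0 than with LCN2 on day 7. Of 9 measured class II genes, 6 were bright enough to test, and all 6 lay below 0, with a median of -0.42 where all genes tested had a median of -0.017 and 55.5% below 0. This was the lowest median of the 40 lists with at least 5 tested members. The lists were chosen with earlier results of these data known, so this rank is a description and not a test. The 6 genes were also lower within each of the 3 numbers (12.9% of all genes tested were), with list means of -0.22 in number 1, -0.52 in number 2 and -0.52 in number 3. The mean level of the 6 genes lay between 8.93 and 9.36 on the d0 arrays and between 9.44 and 9.58 on the d7 arrays. The groups thus did not overlap in this mean, and neither did they for the dendritic cell markers or the respiratory chain genes. The respiratory chain list had a median of only -0.03. None of the 6 passed over all genes, 3 had an unadjusted p under 0.05 on the lower side (0.757% of all genes tested), and 5 did with the number as a block (1.71% of all genes tested). Without the arrays numbered 1 the median was -0.49.

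H2-Ab1 encodes the beta chain of the I-A molecule, the class II molecule that C57BL/6 mice express. It stood at 10.20, 9.54 and 9.62 on the d0 arrays numbered 1, 2 and 3, and at 10.53, 10.32 and 10.12 on the d7 arrays. The groups overlapped only through d0 number 1, and the arrays numbered 1 were the highest of each group. The difference was -0.54 ± 0.21 (SE, n = 3 per group), or 1.45-fold lower with LCN2 from day 0. H2-Aa, which encodes the partner alpha chain, stood at 10.34, 9.64 and 9.99 on the d0 arrays and at 10.57, 10.35 and 10.29 on the d7 arrays. Again only d0 number 1 reached the range of the other group, and the difference was -0.42 ± 0.19.

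H2-Eb1, the beta chain gene of the I-E molecule, stood at 8.98, 7.86 and 7.95 on the d0 arrays and at 9.01, 8.69 and 8.61 on the d7 arrays. The arrays numbered 1 were alike, with a difference of -0.03, while numbers 2 and 3 differed by -0.83 and -0.65. The mean difference of -0.51 ± 0.30 was the most uneven of the 6 over the numbers.

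H2-DM is the chaperone that exchanges peptides in the groove of class II molecules inside the endosome. Its alpha chain gene H2-DMa stood at 8.67, 8.46 and 8.36 with LCN2 from day 0 and at 8.72, 8.62 and 8.92 with LCN2 on day 7, a difference of -0.26 ± 0.14. The groups overlapped, since d0 number 1 lay above d7 number 2. The beta chain genes H2-DMb1 and H2-DMb2 are near-identical copies, and array probes may not fully separate them. H2-DMb1 stood at 10.44, 10.24 and 10.11 against 10.55, 10.58 and 10.75, and H2-DMb2 at 7.56, 7.82 and 7.78 against 8.10, 8.12 and 8.23. In both genes every d0 array lay below every d7 array, as in 2.9% of all genes tested. The differences were -0.36 ± 0.14 for H2-DMb1 and -0.43 ± 0.13 for H2-DMb2, and H2-DMb2 was among the 10 lower genes with the smallest p. The remaining class II genes, H2-Eb2 and the H2-DM modulators H2-Oa and H2-Ob, lay under the brightness limit of 5.66. Their differences were -0.17, 0.08 and -0.00.

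**Figure D2:**
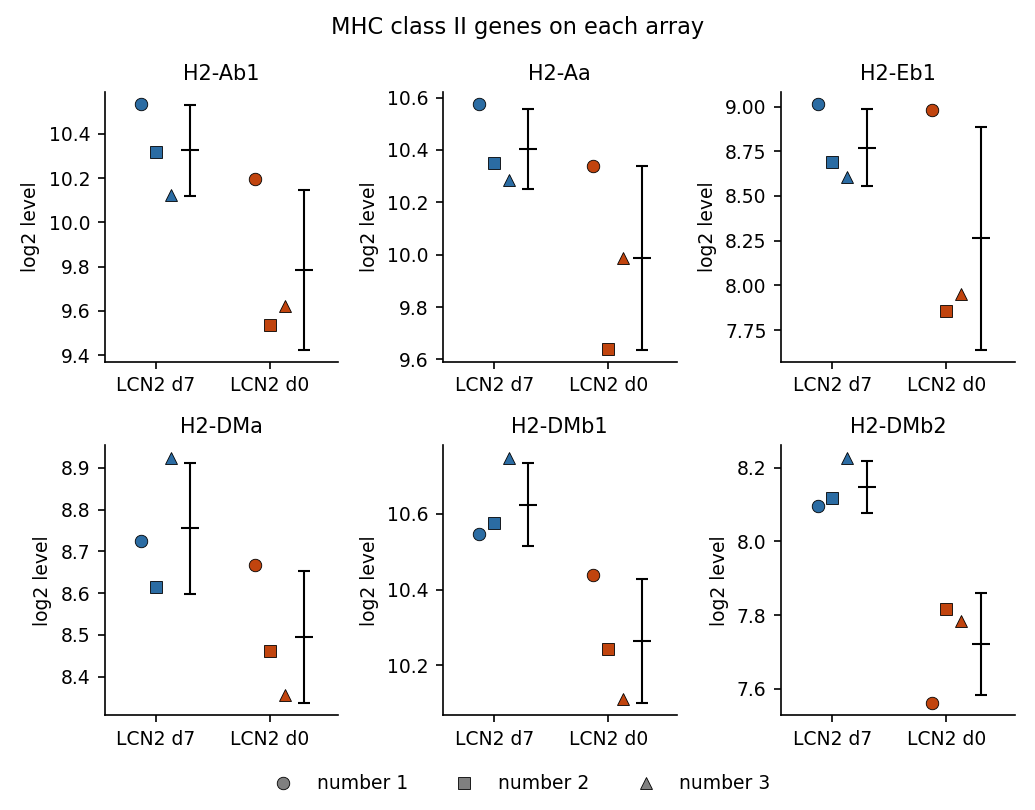
Log2 level of the 6 tested MHC class II genes on each array, with LCN2 on day 7 in blue and from day 0 in orange. Circles, squares and triangles are the arrays numbered 1, 2 and 3, and bars are the group mean ± SD (n = 3). Every gene is lower within every number, and the groups are fully apart for H2-DMb1 and H2-DMb2, as for 2.9% of all genes tested on the lower side.

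Class II promoters share a short module just before the start site, of which the Y box, bound by the factor NF-Y, is a part. The 150 bases before the start site were taken from RefSeq (GRCm38.p6) for the tested class II genes, 5 of 6 of which had an entry. The letters GATTGG, the core of a Y box, were searched on both strands, where the other strand reads CCAATC. They were present in 4 of the 5 genes. In the same window they were present in 17.5% of the 8231 tested genes with an entry and in 10.9% of all 32851 windows. The match lay at position -49 before the start in H2-Aa (chr17:34287824-34287973, minus strand), at -60 and -35 in H2-Eb1 (chr17:34305717-34305866, plus strand), at -62 in H2-DMb1 (chr17:34153041-34153190, plus strand) and at -91 in H2-DMb2 (chr17:34145099-34145248, plus strand). H2-DMa had no such letters in its windows. Both of these windows lie inside the annotated gene (chr17:34119693-34139101), so the bases before its annotated start were not searched. The windows are shown 5′ to 3′ on the strand of the gene because these genes were lower together, with the matched letters in capitals.
H2-Aa: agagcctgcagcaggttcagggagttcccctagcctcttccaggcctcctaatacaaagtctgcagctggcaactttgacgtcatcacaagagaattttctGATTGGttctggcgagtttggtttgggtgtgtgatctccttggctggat
H2-Eb1: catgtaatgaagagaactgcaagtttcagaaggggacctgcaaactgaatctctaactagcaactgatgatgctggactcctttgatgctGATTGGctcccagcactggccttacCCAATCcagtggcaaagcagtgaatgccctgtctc
H2-DMb1: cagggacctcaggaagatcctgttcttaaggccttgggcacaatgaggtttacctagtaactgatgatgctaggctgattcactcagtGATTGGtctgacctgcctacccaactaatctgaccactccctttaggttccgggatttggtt
H2-DMb2: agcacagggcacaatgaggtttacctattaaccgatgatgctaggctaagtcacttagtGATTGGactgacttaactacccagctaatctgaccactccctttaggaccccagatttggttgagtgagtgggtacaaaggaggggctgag
The windows of H2-DMb1 and H2-DMb2 share long stretches around the match. A match describes the letters only, and binding was not measured.

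The regulators of class II genes had differences closer to 0. All 14 measured members of the list of regulators and lysosomal processing genes were tested, 12 lay below 0, and the median was -0.09. It was -0.03 without d0 number 3 and -0.16 without d7 number 2. None had an unadjusted p under 0.05, and 1 did on the lower side with the number as a block (1.71% of all genes tested). Ciita encodes the coactivator that switches class II genes on. It stood at 5.67, 5.96 and 6.29 with LCN2 from day 0 and at 6.07, 6.43 and 6.24 with LCN2 on day 7. The groups overlapped and the numbers did not share a direction, with differences of -0.40, -0.47 and 0.06 (mean -0.27 ± 0.19). Among the DNA-binding partners, the NF-Y subunit gene Nfyb differed by -0.33 ± 0.18 and was lower in all 3 numbers, whereas Nfya and Nfyc differed by -0.00 and -0.01. The RFX subunit genes Rfxank, Rfx5 and Rfxap differed by -0.22, -0.17 and 0.05, and Creb1, whose product binds the same promoter module, by -0.04.

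Marchf1 encodes the ubiquitin ligase that removes class II molecules from the cell surface and Cd83 a membrane protein that opposes it. They differed by -0.23 and -0.09. The genes that prepare peptides differed by at most 0.14 in size: cathepsin S (Ctss) by -0.14, legumain (Lgmn) by -0.09, the thiol reductase gene Ifi30 by -0.10 and cathepsin L (Ctsl) by 0.13. By number, the mean over all 14 genes was -0.07, -0.06 and -0.20.

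MHC class I genes, which show peptides from inside the cell to killer T cells, had a median of -0.08, with 14 of 19 below 0, and -0.17 without d0 number 1 or -0.02 without d7 number 1. The class I-like gene H2-M3 differed by -0.27 ± 0.13, the immunoproteasome subunit gene Psmb9 by -0.25 ± 0.13 and the peptide editor gene Tapbpl by -0.22 ± 0.12. In these 3 of the 19 genes every d0 array lay below every d7 array, as in 2.9% of all genes tested. For Psmb9 this was nearly a tie, since its arrays numbered 1 both stood at 8.23 and differed by -0.0004. None of the 19 had an unadjusted p under 0.05. Costimulatory molecules, the second signal for T cells, had a median of 0.01 over 7 tested genes, which was -0.03 after each array was centred on its median and -0.15 without d0 number 1. Cd80, a ligand of CD28, stood 0.23 ± 0.14 higher, and Icosl and Cd276 differed by -0.19 and -0.13.

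Dendritic cells, which also carry much class II, are a cell type that marrow cultures can hold. Of 17 dendritic cell markers 9 were tested, with a median of -0.18 and 6 below 0. Their mean level ranged from 8.18 to 8.31 on the d0 arrays and from 8.35 to 8.55 on the d7 arrays. By number the list mean was -0.06, -0.07 and -0.37, with 4, 5 and 8 of the 9 markers below 0. Leaving out any 1 array other than d7 number 2 brought the median to between -0.12 (without d7 number 1) and -0.06 (without d0 number 3), and leaving out d7 number 2 brought it to -0.22. It was -0.09 without both arrays numbered 1. H2-Aa is a member of both lists. The defining genes Flt3, Zbtb46, Xcr1 and Clec9a lay under the brightness limit on every array except Zbtb46 on d7 number 2, at 5.67. Group means were 4.16 and 4.13 for Flt3, 5.34 and 5.44 for Zbtb46, 3.25 and 3.39 for Xcr1 and 3.32 and 3.43 for Clec9a, each d0 before d7. Itgax (CD11c), which macrophages in culture carry too, stood at 11.50, 10.51 and 10.46 on the d0 arrays and at 11.40, 11.06 and 10.82 on the d7 arrays. Cd24a differed by -0.44 and Irf4 by -0.37, with wide spread over the numbers. The other way, 3 of the 9 tested markers lay above 0, with Irf8 the highest at 0.09. The part of such cells in the class II difference was not tested. In bulk RNA, fewer cells of a type and less RNA per cell cannot be told apart.

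Genes of cell fusion and of the osteoclast, the multinucleate macrophage that resorbs bone, stood lower with LCN2 from day 0. Of 14 markers 11 were tested and all 11 lay below 0. Their median was -0.14 and their mean -0.32, and by number the mean was -0.18, -0.25 and -0.53. Within number 2 only 6 lay below 0 and 5 above, against 10 below and 1 above within numbers 1 and 3. Of the 11 markers 4 were lower in every number, as were 12.9% of all genes tested. None passed over all genes, 1 had an unadjusted p under 0.05 on the lower side (0.757% of all genes tested), and 5 did with the number as a block (1.71% of all genes tested). Without d7 number 1 the median was 0.04, without d0 number 3 it was -0.04, and without d0 number 1 it was -0.36. It was -0.26 without d7 number 2 and -0.33 without d7 number 3. Without both arrays numbered 1 it was -0.21.

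Dcstamp encodes the membrane protein DC-STAMP, which macrophage fusion requires, and it had the smallest p of all genes tested. It stood at 8.11, 7.73 and 7.93 on the d0 arrays and at 8.58, 8.67 and 8.82 on the d7 arrays. The groups did not overlap, and the gap between the nearest arrays was larger than the range within either group. The difference was -0.77 ± 0.14 (SE, n = 3 per group), 1.70-fold lower with LCN2 from day 0 (adjusted p = 0.9999 by limma). Ocstamp, a second gene needed for fusion, stood at 8.17, 8.996 and 8.93 against 8.30, 9.76 and 9.90. Its arrays numbered 1 were low in both groups and close together, and the difference of -0.62 ± 0.44 came mostly from numbers 2 and 3 (-0.76 and -0.97, and -0.13 in number 1).

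Acp5, tartrate-resistant acid phosphatase, is the enzyme by which osteoclasts are stained. It stood at 10.51, 7.87 and 8.01 on the d0 arrays and at 10.67, 8.90 and 9.01 on the d7 arrays. The arrays numbered 1 were high in both groups, and the other numbers differed by -1.03 and -1.002. The SE without a block was as large as the difference, at -0.73 ± 0.77. The bone matrix proteases Ctsk (cathepsin K) and Mmp9 differed by -0.43 ± 0.69 and -0.54 ± 0.65, and for Mmp9 number 2 went the other way, at 0.05. The remaining 6 tested markers differed by 0.14 or less in size. Among them were Nfatc1, the transcription factor that directs osteoclast formation, at -0.02, and Atp6v0d2, a proton pump subunit also needed for fusion, at -0.09. Calcr, the calcitonin receptor gene of mature osteoclasts, lay under the brightness limit on every array, with group means of 4.16 and 4.14.

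Pla2g7, which encodes the secreted hydrolase of platelet-activating factor, had the largest mean difference of all genes tested. It stood at 9.53, 6.89 and 7.12 with LCN2 from day 0 and at 9.65, 8.52 and 8.38 with LCN2 on day 7. The arrays numbered 1 were close to each other, at a difference of -0.12, while numbers 2 and 3 differed by -1.63 and -1.26. The mean difference was -1.003 ± 0.70, or 2.00-fold lower, and the groups overlapped because d0 number 1 was high. Acp5, Ocstamp and H2-Eb1 had the same form over the numbers, with a difference near 0 in number 1 and larger ones in numbers 2 and 3.

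**Figure D3:**
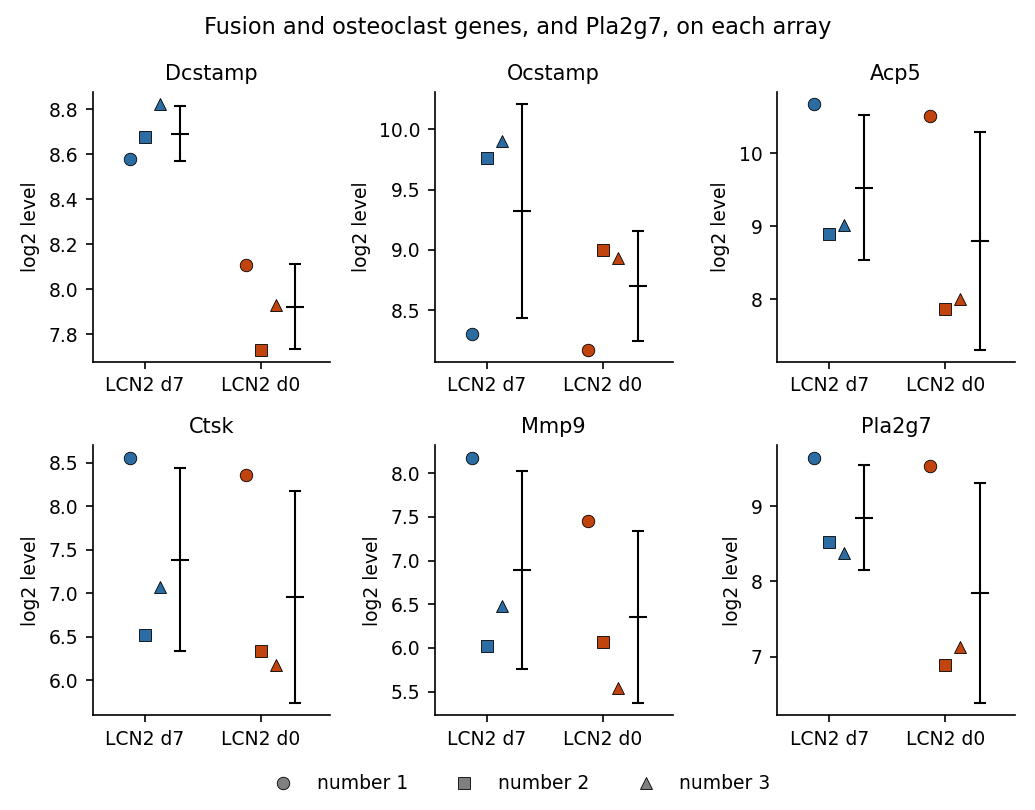
Log2 level of Dcstamp, Ocstamp, Acp5, Ctsk, Mmp9 and Pla2g7 on each array, with LCN2 on day 7 in blue and from day 0 in orange. Symbols mark the numbers 1, 2 and 3, and bars are the group mean ± SD (n = 3). Dcstamp is fully apart between the groups, while Acp5, Ocstamp and Pla2g7 are apart in numbers 2 and 3 and close in number 1.

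Cholesterol synthesis runs from acetyl-CoA through mevalonate to sterols, and the transcription factor SREBP2 raises its genes when membrane sterol is low. Of the 16 measured genes all were tested and 14 lay below 0, with a median of -0.17. By number the list mean was -0.29, -0.00 and -0.18. None had an unadjusted p under 0.05, and 1 did on the lower side with the number as a block (1.71% of all genes tested). Without d7 number 1 the median was 0.05, without d0 number 1 it was -0.29, without d0 number 3 it was -0.10, and without both arrays numbered 1 it was -0.09. The arrays numbered 1 were higher than the others for 15 of the 16 genes.

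Nsdhl, which encodes a dehydrogenase of the later steps, was the most even member. It stood at 9.39, 9.36 and 9.14 with LCN2 from day 0 and at 9.64, 9.65 and 9.41 with LCN2 on day 7, and the groups did not overlap. Its differences were -0.26, -0.30 and -0.27 within the numbers, with a mean of -0.27 ± 0.14. Hmgcs1, the enzyme gene that makes the precursor of mevalonate, stood at 9.73, 9.40 and 9.25 against 10.18, 9.54 and 9.53. It was lower in every number, by a mean of -0.29 ± 0.22, but the groups overlapped. Mvk, mevalonate kinase, differed by -0.27 ± 0.17. Cyp51 and Idi1 went in both directions, with number 2 at 0.31 and 0.16 and means of -0.23 each.

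Insig1 encodes the endoplasmic reticulum protein that holds SREBP back when sterol is plentiful, and it is itself a target of SREBP. It stood at 8.97, 8.76 and 8.68 on the d0 arrays and at 9.25, 9.01 and 9.12 on the d7 arrays. The groups did not overlap and all 3 numbers were lower (-0.28, -0.26 and -0.44), with a mean of -0.32 ± 0.13. Insig2 differed by -0.20, Srebf2 by -0.17, Scap by -0.02 and the protease gene Mbtps1 by 0.06. The 9 tested genes of SREBP regulation and sterol uptake had a median of -0.025, which was 0.005 after quantile normalization, -0.20 without d0 number 1 and 0.045 without d0 number 3.

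The sterol regulatory element was searched as TCACNCCAC on both strands of the 150 bases before the start site. Of 13 tested cholesterol synthesis genes with an entry in the RefSeq table (GRCm38.p6), only Hmgcs1 held it, and 0 of 7 genes of SREBP regulation did. Over all windows the share was 0.639%, and over tested genes 0.753%. In Hmgcs1 (chr13:119690201-119690350, plus strand) the match began at position -137. It is shown, in capitals, because this gene had the largest difference of the list.
Hmgcs1: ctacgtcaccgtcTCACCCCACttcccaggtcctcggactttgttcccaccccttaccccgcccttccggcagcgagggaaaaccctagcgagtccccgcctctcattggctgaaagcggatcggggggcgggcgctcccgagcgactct
No match says only that these letters are not in the window.

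Fatty acid synthesis genes had a median of -0.11, with 9 of 12 below 0. It was -0.034 without d7 number 1 and -0.010 without both arrays numbered 1. Elovl6, which lengthens palmitate, differed by -0.47 ± 0.25 and was lower in every number. Acaca, the gene of the first committed enzyme, differed by -0.25 ± 0.16. Me1, malic enzyme, went the other way at 0.45 ± 0.18, and it belongs to the NRF2 list as well. LXR targets, which export cholesterol, had a median of -0.036 with 9 of 10 below 0. It was -0.23 without d0 number 1 and 0.037 without d0 number 2. The list mean differed by 0.10, -0.03 and -0.31 within the numbers, and within number 1, 8 of the 10 genes lay above 0. Apoe, the carrier of exported lipid, differed by 0.26, -0.52 and -0.56 within the numbers.

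NRF2 is the transcription factor of the antioxidant response. Of its 25 measured targets and regulators 24 were tested, 16 lay above 0 and the median was 0.03, which was -0.003 after each array was centred on its median and -0.015 without the arrays numbered 1. It was 0.10 without d0 number 3. The list mean differed by 0.19, 0.05 and -0.01 within the numbers. Me1, a source of NADPH, stood at 7.10, 7.65 and 7.30 with LCN2 from day 0 and at 6.72, 6.89 and 7.10 with LCN2 on day 7. It was higher in every number, though d0 number 1 and d7 number 3 met at 7.10. It was the only member with an unadjusted p under 0.05 (0.478% of all genes tested were higher in this way).

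Glutathione genes were among the higher members. Gclm, the modifier subunit of the enzyme that begins glutathione synthesis, differed by 0.32 ± 0.20, and Gclc, its catalytic subunit, by 0.10 in almost equal steps over the numbers. Gstm1 and Gsta3, glutathione transferases, differed by 0.35 ± 0.41 and 0.27 ± 0.47, both with the largest value in number 1. Hmox1, heme oxygenase, stood at 12.43, 12.79 and 12.73 against 12.25, 12.61 and 12.41 and differed by 0.22 ± 0.15, higher in every number. Nqo1, Prdx1, Txn1 and Txnrd1, further textbook targets, differed by 0.01, -0.00, 0.03 and -0.03. The cystine transporter gene Slc7a11 differed by -0.10 ± 0.68, and the NRF2 gene Nfe2l2 itself by -0.10.

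**Figure D4:**
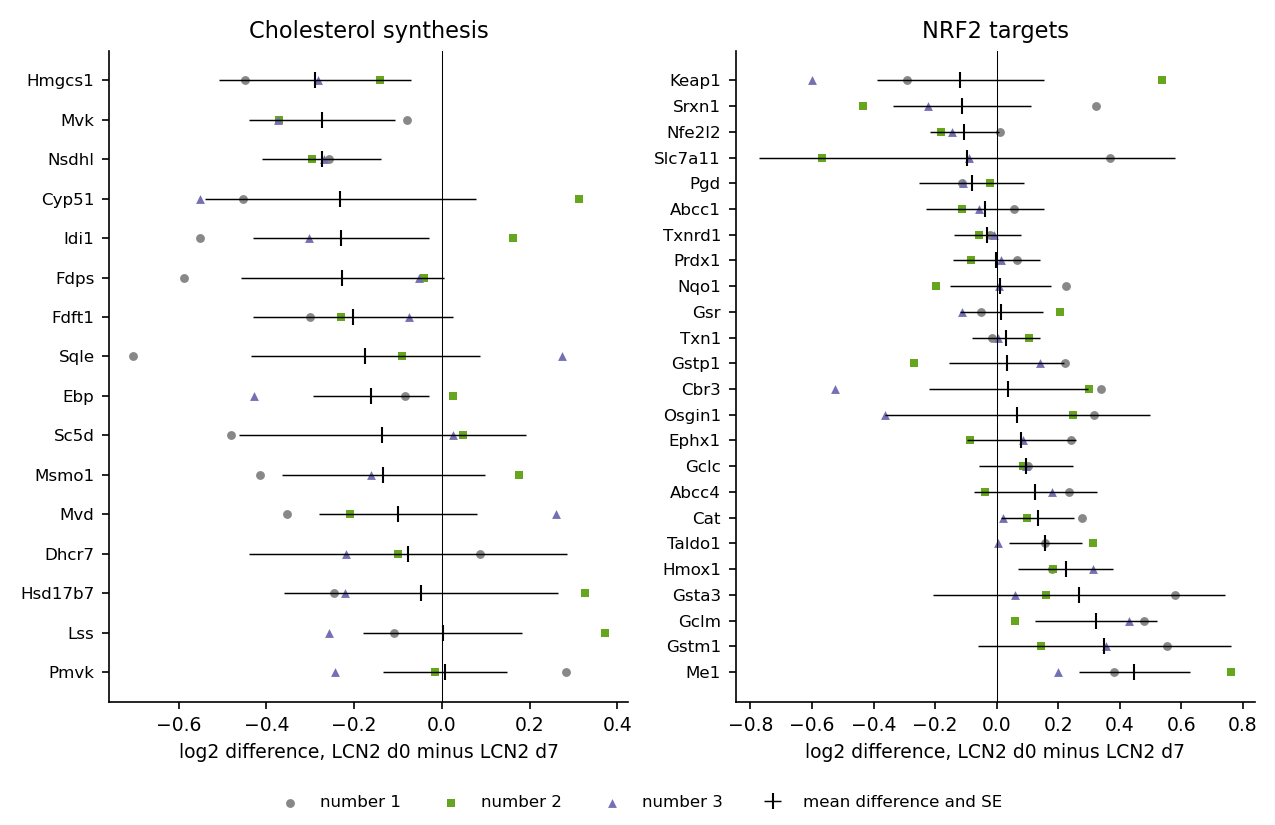
Log2 differences (d0 minus d7) of the tested cholesterol synthesis genes (left) and NRF2 list genes (right). Coloured symbols are the differences within numbers 1, 2 and 3, and black bars the mean difference ± SE of the limma fit (n = 3 per group). 14 of 16 sterol genes lie below 0 in the mean with number 2 often to the right, and 16 of 24 NRF2 genes lie above 0, a list whose median turned to -0.003 after median centring.

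Interferon genes differed little and unevenly. Of 25 tested genes of the type I interferon response 16 lay below 0, with a median of -0.05. By number the list mean was 0.07, 0.01 and -0.28. The median was -0.20 without d7 number 1, 0.04 without d0 number 1, 0.07 without d7 number 3 and 0.10 without both arrays numbered 3. Mx1, an antiviral GTPase, stood at 5.93, 7.03 and 6.66 against 6.63, 7.16 and 7.23 and was lower in every number (mean -0.47 ± 0.30). Stat2, a subunit of the interferon-activated transcription factor, differed by -0.35 ± 0.32, and Rsad2 by -0.46, 0.24 and -0.78 within the numbers. The 7 tested GTPases of the interferon gamma response, which attack vacuoles that hold microbes, had a median of -0.14 with 5 below 0, and 0.01 without d7 number 3. Irgm1 stood at 8.52, 8.58 and 8.11 against 8.67, 8.68 and 8.68, fully apart, and differed by -0.28 ± 0.15.

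Cell cycle genes had a median of -0.09, with 42 of 52 below 0, and the lower values came from number 1. The list mean differed by -0.56, 0.24 and 0.03 within the numbers, and the median was 0.13 without the arrays numbered 1. It was 0.33 without d0 number 1 and -0.30 without d0 number 3. The mean level of the list was 7.48 on d0 number 1, the lowest of the 6 arrays, 8.04 on d7 number 1 and 8.54 to 8.77 on the other 4. Cdc20, an activator of the anaphase-promoting complex, differed by -1.21, -0.01 and -0.06, the checkpoint kinase gene Bub1b by -1.25, 0.57 and -0.36, and the spindle gene Nusap1 by -1.05, -0.02 and 0.04.

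Genes of IL-4 activation had a median of -0.09, with 18 of 29 below 0. Their list mean differed by -0.25, 0.04 and -0.08 within the numbers, and the median was 0.05 without d7 number 1 and -0.16 without d0 number 1. Irf4, a transcription factor that IL-4 induces, stood at 6.74, 7.86 and 7.62 against 7.68, 7.39 and 8.26. It overlapped and went in both directions (-0.94, 0.46 and -0.65). Tiam1, a Rac activator gene, differed by -0.36 ± 0.49. Chil3, a chitinase-like protein gene, differed by 0.24 ± 0.53 and was higher in every number. Arginase (Arg1), the resistin-like gene Retnla and the mannose receptor gene Mrc1, chosen after their values were seen as the best-known genes of this state, differed by 0.06 ± 0.29, -0.04 ± 0.29 and 0.20 ± 0.14. Of the receptor pathway, 16 genes were tested with a median of -0.036. The phosphatase gene Ptpn6 differed by -0.20, and Pik3cd, a catalytic subunit of PI3 kinase, by -0.28 ± 0.13 with the groups fully apart.

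The cells' own Lcn2 transcript overlapped between early and late LCN2. It stood at 8.85, 10.82 and 10.62 with LCN2 from day 0 and at 9.24, 10.39 and 10.65 with LCN2 on day 7, with a difference of 0.01 ± 0.57. The arrays numbered 1 were the lowest in both groups. The proposed LCN2 receptor genes Slc22a17, Lrp2, Mc1r, Mc3r and Mc4r lay under the brightness limit in mean level and were not tested. Slc22a17 stood at 5.46, 5.36 and 5.37 against 5.29, 4.96 and 4.79 (difference 0.38), and Mc3r at 4.95, 4.92 and 4.97 against 4.24, 4.71 and 4.60 (difference 0.43).

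Iron genes were near 0 as a list, with a median of 0.016 over 21 genes that was -0.022 after median centring and -0.033 without d7 number 2. Slc40a1, ferroportin, the exporter of iron from cells, stood at 7.72, 8.40 and 8.90 against 6.90, 8.54 and 8.40. Its difference of 0.39 ± 0.47 was 0.82, -0.14 and 0.50 within the numbers. Slc25a28, mitoferrin 2, which brings iron into mitochondria, stood at 7.10, 7.09 and 6.94 against 7.26, 7.49 and 7.32. Every d0 array lay below every d7 array, and the difference was -0.31 ± 0.13.

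Over the 40 lists with at least 5 tested members, 22 medians lay below 0 and 7 passed 0.1 in size. For 10 lists the mean was lower within all 3 numbers and for 1 list it was higher within all 3. Apart from the MHC class II, osteoclast, cholesterol, dendritic cell, fatty acid synthesis and interferon gamma lists, only the progenitor markers passed 0.1 in size, at 0.12 over 6 tested genes. Their list mean differed by 0.03, 0.30 and -0.10 within the numbers, and their median was -0.15 without d0 number 2, -0.07 without d7 number 1 and 0.38 without d0 number 1. Macrophage markers had a median of 0.015, which was -0.024 after median centring, -0.07 without d0 number 1 and -0.03 without d0 number 2. Of the 19 tested markers 10 lay above 0 and 9 below. Siglec1 at 0.32 ± 0.28 and Cd81 at 0.31 ± 0.17 were among their most different members, and the lowest was C1qa at -0.20. Monocyte markers had a median of 0.03, which was -0.005 after median centring. It was 0.245 without d0 number 1, -0.25 without d0 number 2 and -0.32 without d7 number 1. Of the 11 tested monocyte markers 6 lay above 0 and 5 below, and 2 were higher and 2 lower in every number. Among them Plac8 was lower in every number, at -0.36 ± 0.28, and Chil3 higher in every number, at 0.24 ± 0.53. Neutrophil granule markers had a median of 0.06, with list means of -0.32, 0.42 and -0.05 within the numbers. The median was 0.47 without d0 number 1, -0.18 without d0 number 2 and -0.14 without d7 number 1.

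**Figure D5:**
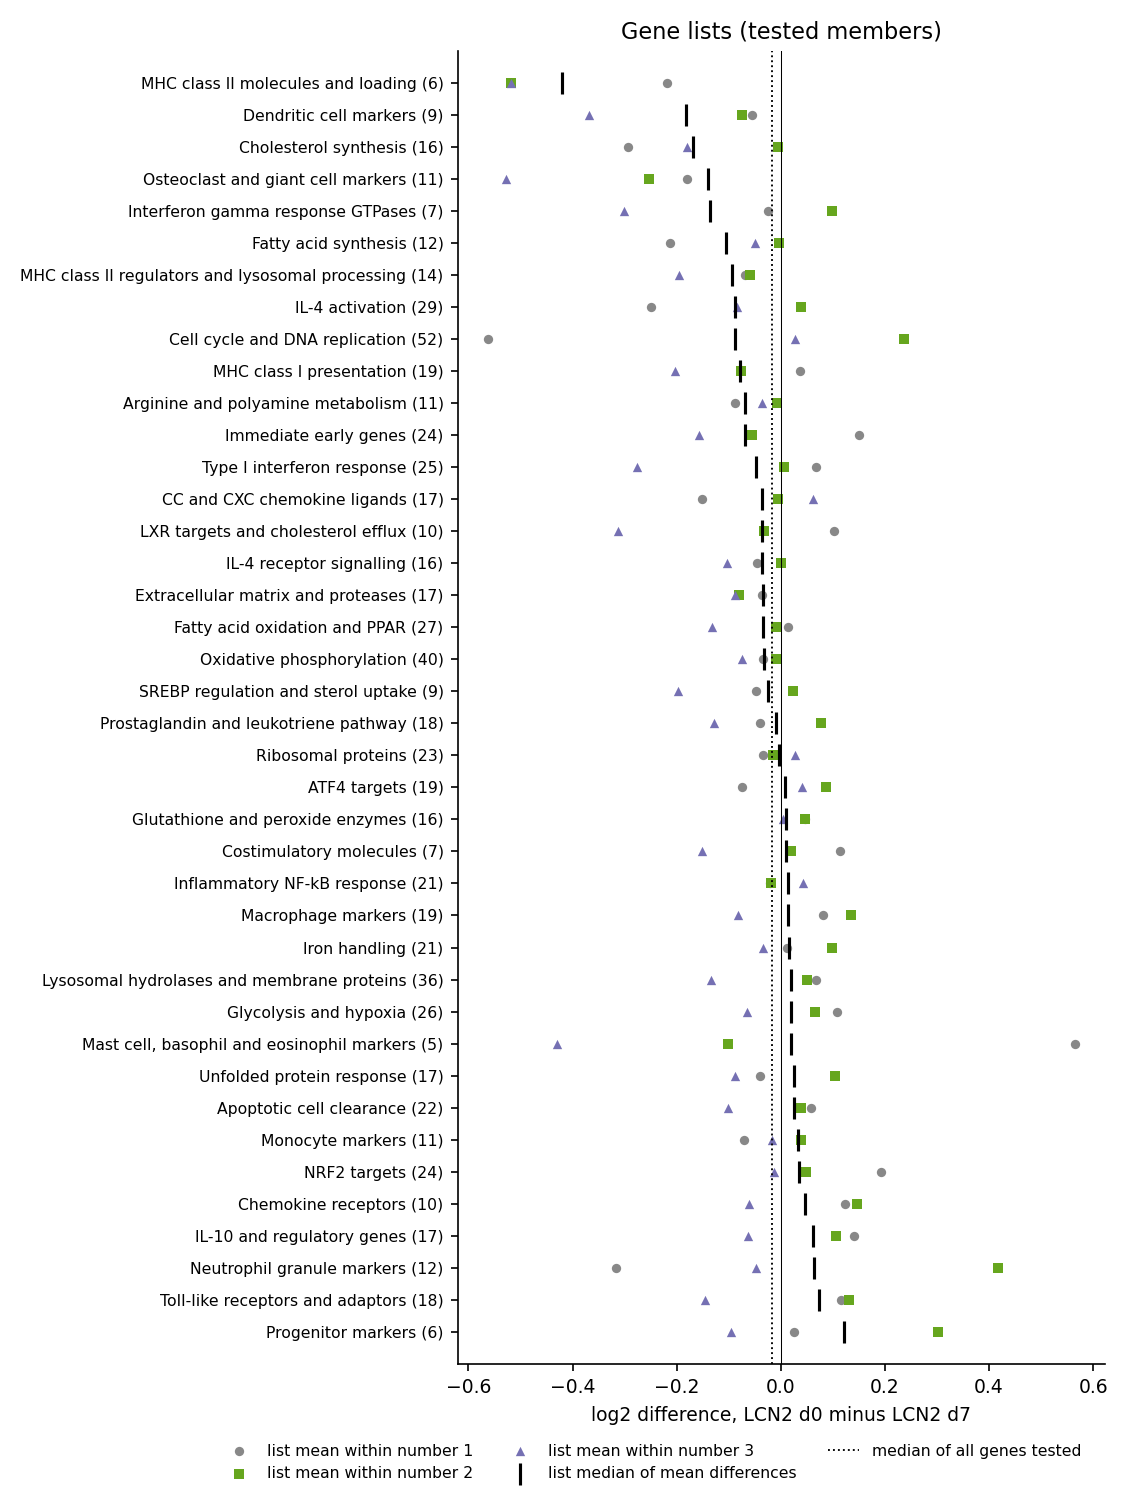
The 40 gene lists with at least 5 tested members (number in brackets), ordered by the median of their mean log2 differences (black tick, d0 minus d7). Grey circles, green squares and purple triangles are the list means within numbers 1, 2 and 3, and the dotted line is the median of all genes tested (-0.017). MHC class II genes lie lowest at -0.42, and the cell cycle list spreads from -0.56 in number 1 to 0.24 in number 2. Median centring turned the lists with medians between 0 and 0.04 to below 0, and quantile normalization turned the SREBP and prostaglandin lists to above 0.

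Other lists held single genes that were apart between the groups, as 4.96% of all genes tested were. Among genes of apoptotic cell clearance, the scavenger receptor gene Stab1 stood at 7.89, 7.94 and 7.55 with LCN2 from day 0 and at 7.46, 7.35 and 7.32 with LCN2 on day 7, a difference of 0.42 ± 0.14. Pros1, protein S, a bridging ligand of the TAM receptors, stood at 8.42, 8.70 and 8.68 against 8.82, 8.98 and 9.10, a difference of -0.36 ± 0.14. Both were fully apart in opposite directions. The TAM receptor gene Axl differed by -0.43 ± 0.68, with 0.02, -0.45 and -0.88 within the numbers. The checkpoint receptor gene Havcr2 (TIM-3) was higher in every number, at 0.41 ± 0.36.

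In the prostaglandin pathway, Hpgd, the enzyme gene that inactivates prostaglandins, stood at 5.11, 8.24 and 7.87 against 4.84, 7.27 and 7.41. It was higher in every number, by 0.28, 0.97 and 0.46, but the arrays numbered 1 were so much lower that the SE was 0.96. Ptger4, the prostaglandin E2 receptor gene EP4, was lower in every number, by -0.79, -0.37 and -0.34, with a mean of -0.50 ± 0.24. Among immediate early genes, Egr1 was lower in every number (-0.31, -0.30 and -0.91) and Egr3 higher in every number (0.06, 0.67 and 0.18). The complement receptor gene C5ar1 stood at 10.21, 9.92 and 10.08 against 9.75, 9.79 and 9.83, fully apart at 0.28 ± 0.13. In the respiratory chain, the complex III subunit gene Uqcrfs1 and the complex II genes Sdha and Sdhd were fully apart at -0.25 ± 0.11, -0.23 ± 0.12 and -0.24 ± 0.14. Their list of 40 genes had a median of -0.03, and 17 lay above 0. Of the 40, 4 were fully apart on the lower side and 0 on the higher side. Over all genes tested the shares were 2.9% and 2.06%.

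After Dcstamp, the lower genes with the smallest p came from unrelated processes. With Dcstamp, all 10 were fully apart between the groups, against 2.9% of all genes tested on the lower side. Choosing genes by the smallest p from 3 arrays per group itself favours such separation. Nes, which encodes the intermediate filament nestin, stood at 7.08, 7.11 and 7.04 against 7.58, 7.79 and 7.49, a difference of -0.54 ± 0.13. F7, coagulation factor VII, stood at 9.12, 9.01 and 8.94 against 10.01, 9.46 and 9.63, a difference of -0.68 ± 0.17. Jarid2, a cofactor of Polycomb repressive complex 2, stood at 8.38, 8.53 and 8.27 against 8.87, 8.94 and 8.86, a difference of -0.50 ± 0.12. All 3 genes were lower in each number. The others were the mitochondrial carrier gene Sfxn2 at -0.48, the zinc finger genes Zscan12 at -0.43 and Zfp868 at -0.56, the kinase gene Dstyk at -0.58, the receptor gene Fgfr1 at -0.53, and H2-DMb2. By size, the fully separated lower genes also took in Nos1ap at -0.55, Dnajc25 at -0.51 and Ano8 at -0.50. For Nos1ap the arrays numbered 3 nearly tied, with a difference of -0.0005. The d0 means of Zscan12 (5.51) and Ano8 (5.53) lay under the brightness limit, so both genes entered the test through the d7 arrays, where they were higher.

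With the number as a block, the smallest p belonged to Efr3b, a membrane adaptor gene of phosphatidylinositol 4-kinase. It stood at 6.18, 7.03 and 6.92 against 6.92, 7.95 and 7.69, and its differences were almost equal, at -0.75, -0.91 and -0.77. Its groups overlapped only because number 1 was low in both. Cttn, the gene of the actin regulator cortactin, stood at 7.06, 5.41 and 5.58 against 7.63, 6.36 and 6.13 and differed by -0.57, -0.94 and -0.55. Neither passed after adjustment in the blocked fit (adjusted p = 0.9999 by limma).

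The higher genes with the smallest p lay low on the scale. Again all 10 were fully apart, which the choice by p favours, against 2.06% of all genes tested on the higher side. Ppp1r3d, which directs protein phosphatase 1 to glycogen, stood at 5.82, 5.91 and 6.12 against 5.52, 5.32 and 5.35, a difference of 0.55 ± 0.14. Arap2, a regulator of the small GTPases Arf6 and RhoA, stood at 6.73, 6.72 and 6.78 against 6.20, 5.96 and 6.40, a difference of 0.55 ± 0.15. Apoa5, an apolipoprotein gene of the liver, had the largest difference of the 10, at 0.60 ± 0.19. Rnf207 stood at 0.58, the ciliary transport gene Ift88 at 0.57, the calpain gene Capn12 at 0.54, the tetraspanin gene Tspan9 at 0.49, Wdr86 at 0.44, Tbx10 at 0.43 and Clpsl2 at 0.36. By size, the fully separated higher genes also took in Acp4 at 0.54, Fry, Htra4 and P4ha2 at 0.51 each. The d7 means of Ppp1r3d (5.40), Capn12 (5.49), Rnf207 (5.57), Ift88 (5.54), Acp4 (5.39) and P4ha2 (5.44) lay under the brightness limit, so these 6 genes entered the test through the d0 arrays, where they were higher. The blocked fit added Sirpb1c, a signal-regulatory protein gene, which was 0.66, 0.40 and 0.42 higher within the numbers.

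The levels of the genes that were fully apart differed by direction. The 207 genes higher with LCN2 from day 0 had a median level of 6.96, and the 291 lower genes had a median level of 7.75, where all genes tested had a median of 7.89. Without the brightness filter 19505 genes were tested, and 251 higher and 171 lower genes had an unadjusted p under 0.05 (40.5% lower). With a stricter filter 5040 genes were tested, and 4 higher and 31 lower genes did (88.6% lower).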

How the data were processed

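Labelled RNA from 6 macrophage samples was hybridised to 1-colour arrays after amplification with a pico 3' IVT kit, per the labels' protocols. The deposited values are log2 expression levels, which the authors made with oligo and RMA, per the submitters' processing notes, and tool versions are not given in the sources used here. Of 22203 probe sets, 19572 had 1 gene symbol in the platform annotation, 0 had several and 2631 had none. For the 55 genes with several probe sets, that with the highest mean was kept.

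The 10034 genes with a mean at or above 5.66, the median of all probe set means, were tested with limma (3.58.1), with 1 mean per group and Benjamini-Hochberg adjustment over all of them. The number of arrays limits the precision. Deviations from the group mean of equally numbered arrays correlated at 0.744, 0.161 and 0.263. Crossed, numbers 2 and 3 correlated at 0.631 and 0.5, and the number 2 minus number 3 difference correlated at -0.383 between the groups. The labels do not explain the number, and a fit with it as a block was made too. Named genes were the 10 higher and 10 lower with the smallest p, the 10 of each with the largest difference among those fully apart, 3 of each list by size, all members of 6 lists, and the 5 of each with the smallest p under the block. The members and lists were chosen with earlier results of these data known. The script was tested on simulated data. Alternatives covered filter, scaling, array weights, intensity trend, probe set choice, the block and leaving out arrays. A block of the arrays numbered 1 against the rest was chosen after seeing the data.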

Additional observations from a re-analysis of the deposited data

How the results depend on the processing

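Every alternative called 0 genes at an adjusted p under 0.05, and an analysis with the replicate number as a block called 0 as well. What the number stands for is not stated in the labels, and numbers 2 and 3 correlated more when crossed than within the number. At an unadjusted p under 0.05 there were 124 of 10034 genes as reported. Over the alternatives the number ranged from 35 of 5040 with a stricter filter to 428 of 10034 without the arrays numbered 1. The blocks, the intensity trend and the filters leave the mean difference of a gene as it is, so its sign could not turn there. Many named genes were also picked by p or size in these same arrays. Of 199 tested named genes, 100 had a difference beyond its SE, and 97 of these kept their sign under all 19 settings. The exceptions when arrays were left out were Cdc20 at -0.71 to 0.10, Oaz2 at -0.39 to 0.0165 and Pfkfb4 at -0.49 to 0.0176. The osteoclast median ranged from -0.36 to 0.0372 (without d7 number 1) and was -0.31 with array weights, and the cholesterol median ranged from -0.29 to 0.0492 (without d7 number 1). The cause was not tested. The MHC class II median stayed between -0.52 and -0.33 under all settings.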

Other observations

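Several genes outside the rule for named genes, chosen after their values were seen, had differences over 0.5 in size. Gja1, the gap junction gene of connexin 43, had the largest positive difference of all genes tested. It stood at 5.89, 6.93 and 7.14 with LCN2 from day 0 and at 6.06, 5.93 and 5.82 with LCN2 on day 7. Number 1 went the other way, at -0.17, and numbers 2 and 3 differed by 0.99 and 1.32. Socs2, a suppressor of cytokine signalling, differed by 0.04, -0.67 and -1.14 within the numbers, and the interleukin 1 receptor gene Il1r1 by 0.02, -0.67 and -0.92. The d0 mean of Il1r1 was 5.54, under the brightness limit. Gpc1, the proteoglycan glypican 1, differed by -0.04, -0.90 and -0.83. Edn1, endothelin 1, was lower in every number, at -0.68, -0.34 and -0.61, as was Slamf8, at -0.27, -0.40 and -1.17. Chil4, a chitinase-like protein gene close in sequence to Chil3, was higher in every number, at 0.10, 1.21 and 0.33.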
